A study of Mus musculus with 6 samples.

Results

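DNA methylation is copied at the replication fork, set on new sites, removed by oxidation, and laid on DNA that is being packed into new nucleosomes. The genes described here cover these steps: Dnmt1, Uhrf1 and Hells for maintenance, Dnmt3a and Dnmt3b for de novo methylation, Tet1, Tet2 and Tet3 for oxidation, and Chaf1a and Chaf1b for the chromatin assembly factor CAF-1. They were chosen by name, 10 genes in all, and every probe set with 1 gene symbol that names one of them was read. 9 of the 10 genes were found in this way, on 24 probe sets, among 18193 genes and 45037 probe sets in all. Chaf1a was not named by any such probe set and is not analysed here.

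UHRF1 reads hemimethylated CpG sites behind the fork and brings DNMT1, which copies the mark to the new strand, and HELLS is a remodeller that opens chromatin for methylation. DNMT3A and DNMT3B place marks without a methylated template, and the TET enzymes oxidise 5-methylcytosine. CAF-1 puts histones H3 and H4 on freshly replicated DNA. DNMT3A and TET2 are also known as tumour suppressors in blood cancers.

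The samples were MycGFP positive and MycGFP negative cells of mouse T-cell acute lymphoblastic leukaemia, each measured on 3 arrays numbered 1 to 3. Both groups were CD25+ splenocytes of C57BL/6 mice with the genotype Notch1[delta]E mycGFP, aged 12 weeks and taken 4 weeks after transplantation into congenic recipients. Notch1[delta]E is an activated form of the receptor, which all 6 samples carry, and GFP reports c-MYC protein. The cells were sorted by mCherry and GFP. The design describes 3 independent leukaemias, split by GFP after isolation from spleens, and no normal T cells were among the samples, so every difference is between fractions of leukaemia cells. The labels do not name what drives the Notch1 transgene, nor say whether mice were pooled.

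The arrays had median intensities of 30.5 to 31.4 in MycGFP positive cells and 31.7 to 32.7 in MycGFP negative cells, on the deposited linear scale. The 6 measured T leukaemia markers, among them Cd3e, Il2ra and Ptcra, were bright in both groups, and none passed the test. Their summed intensities were 40655 to 51724 in positive and 51097 to 57031 in negative cells. Il2ra encodes CD25, and both groups were described as CD25+, so its signal adds nothing on which cells these were. The 4 measured B cell markers summed to 96.7 to 443 in positive and 190 to 731 in negative cells, and the 5 myeloid markers to 90.6 to 277 and, in negative cells, 111 to 1113. The 4 stromal and endothelial markers summed to 542 to 937 in positive and 676 to 1211 in negative cells. No marker of these lists, nor of 3 erythroid and 2 NK or regulatory T cell markers, passed the test, and the part of such cells in the results was not tested. The 3' to 5' ratio of the Gapdh control probe sets was 1.48 to 1.58 in positive and 1.58 to 1.89 in negative cells. The actin ratio was 1.72 to 1.85 in positive and 1.54 to 1.87 in negative cells.

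In MycGFP positive cells the remodeller gene Hells and the CAF-1 subunit gene Chaf1b rose, by 5.66-fold and 3.95-fold. These were the only 2 of the 9 measured genes that passed the test over all genes (limma, adjusted p under 0.05), where 4.62% of all genes passed in this direction, and none of the 9 passed in the other, where 1.51% of all genes did. Dnmt1, Uhrf1 and Dnmt3b had all 3 positive arrays above all 3 negative ones but did not pass. Dnmt3a, Tet1 and Tet2 overlapped between the groups, Tet3 had all positive arrays below all negative ones, and none of them passed. Positive arrays lay above all negative arrays for 5 of the 9 genes, against 17.0% of all genes, and below all of them for 1, against 11.2%. The median log2 difference, MycGFP positive minus negative, was 0.55 over the 9 genes and 0.01 over all genes. The shares of all genes given here and below include dim genes, while all 9 genes were brighter than the median probe set on every array. Among the 9096 genes above the median gene, fitted alone, 1022 were called higher and 328 lower, at a median log2 difference of 0.14. In that fit 3 of the 9 genes were called higher and 0 lower.

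**Figure D1:**
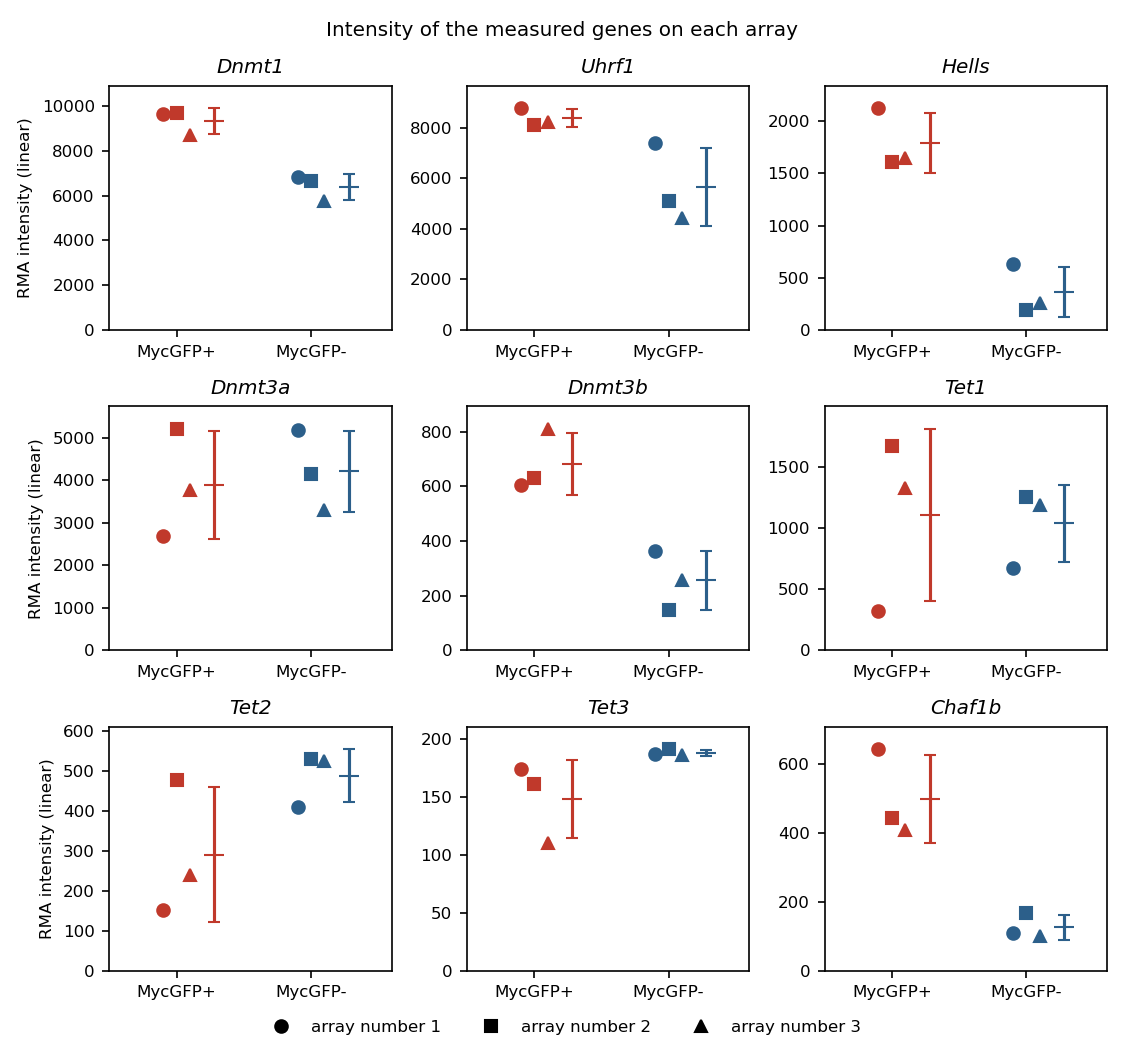
RMA intensity on a linear scale (y axes, each from 0) of the 9 measured genes on each array, with MycGFP positive cells in red on the left and MycGFP negative cells in blue on the right. Symbols give the array number, and the bars beside them the mean and SD of 3 arrays; the groups separate for Dnmt1, Uhrf1, Hells, Dnmt3b and Chaf1b with positive above, and for Tet3 with positive below.

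Hells had intensities of 2124, 1611 and 1644 on positive arrays 1 to 3, against 634, 192 and 255 on negative arrays 1 to 3. Every positive value lay far above the highest negative one. The means were 1793 ± 287 in positive and 360 ± 239 in negative cells (SD, n = 3 each). On log2 values the groups differed by 2.50 ± 0.44 (SE, limma, adjusted p = 0.0331). Both other Hells probe sets also passed over all probe sets, of which 4.01% did in this direction. Their log2 differences were 2.82 (limma, adjusted p = 0.0127) for 1430139_at and 2.33 (limma, adjusted p = 0.0190) for 1453361_at. On 1 of the negative arrays 1453361_at was dimmer than the median probe set. The Hells call was lost on leaving out any 1 of 5 arrays: its adjusted p was 0.0992, 0.108 and 0.0974 without positive array 1, 2 or 3, and 0.0877 and 0.0761 without negative array 2 or 3. Its log2 difference stayed between 2.15 and 3.01 without any one of the 6 arrays. Calls over all genes fell too. In place of 840 genes, 174, 0 and 104 were called higher without positive array 1, 2 or 3, and 131 and 586 without negative array 2 or 3. A call lost in this way, here and below, is therefore not particular to the gene.

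Dnmt1, the maintenance methyltransferase gene, had 3 probe sets. The one with the highest mean, 1435122_x_at, read 9663, 9686 and 8693 on positive arrays 1 to 3, against 6824, 6639 and 5742 on negative arrays 1 to 3. The groups did not overlap, and the fold was 1.46, with a log2 difference of 0.55, an SE of 0.13 and a 95% interval of 0.23 to 0.87 (limma, adjusted p = 0.0687). On 1447877_x_at the values were 5312, 5176 and 4399 in positive cells, against 3275, 2976 and 2312 in negative cells, which differ by 0.81 on the log2 scale (limma, adjusted p over all probe sets 0.0514). On 1422946_a_at they were 4797, 3396 and 3126 in positive cells, against 2209, 1374 and 953 in negative cells, which differ by 1.38 on the log2 scale (limma, adjusted p over all probe sets 0.0685). All 3 probe sets thus separated the groups in one direction, and the size of the difference ranged from 0.55 to 1.38. Identifiers ending in x mark probe sets that can hybridise to other transcripts, and without them Dnmt1 was represented by 1422946_a_at (adjusted p = 0.0693 over all genes). The mean of the 3 probe sets passed, with a log2 difference of 0.91 (limma, adjusted p = 0.0450). With each array left out in turn, Dnmt1 did not pass (limma, adjusted p = 0.0959 to 0.199), nor with centring on array medians (0.149).

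Uhrf1, the reader of hemimethylated DNA, showed the same order of arrays on both of its probe sets. On 1415810_at it had 8769, 8109 and 8233 on positive arrays 1 to 3, against 7389, 5099 and 4444 on negative arrays 1 to 3. The log2 difference was 0.60 ± 0.21 (SE), with a 95% interval of 0.09 to 1.11 (limma, adjusted p = 0.160). On 1415811_at the values were 1604, 1509 and 1538 in positive cells, against 886, 458 and 272 in negative cells. There the positive arrays were close together and the negative ones far apart. The groups differed by 1.69 on the log2 scale (limma, adjusted p over all probe sets 0.0672). Without negative array 1, which was nearest to the positive arrays, Uhrf1 passed with a log2 difference of 0.81 (limma, adjusted p = 0.0435). It passed under no other setting tried.

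Negative array 1 was the highest of the 3 negative arrays on all 8 probe sets of Dnmt1, Uhrf1 and Hells. It was also the highest negative array for genes of S phase and of mitosis. The mean log2 deviation of 17 S phase genes from their own means was 1.25, 1.02 and 0.91 on positive arrays 1 to 3, and -0.17, -1.33 and -1.69 on negative arrays 1 to 3. For 9 genes of G2 and mitosis it was 1.44, 1.11 and 0.95 in positive cells, and 0.22, -1.46 and -2.25 in negative cells. On the same scale Dnmt1, Uhrf1 and Hells together lay at 0.73, 0.56 and 0.53 in positive cells, and at -0.10, -0.86 and -0.86 in negative cells. Of the 17 S phase genes 12 passed as higher, and of the 9 mitosis genes 1 did, against 4.62% of all genes. All positive arrays lay above all negative ones for 14 of the 17 and for all 9, against 17.0% of all genes. The median log2 difference was 2.16 for the S phase and 2.31 for the mitosis genes. The part of the cycling state in the differences of the methylation genes was not tested. In sorted bulk RNA, a smaller share of cells that express a gene and less RNA of it per cell cannot be told apart.

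**Figure D2:**
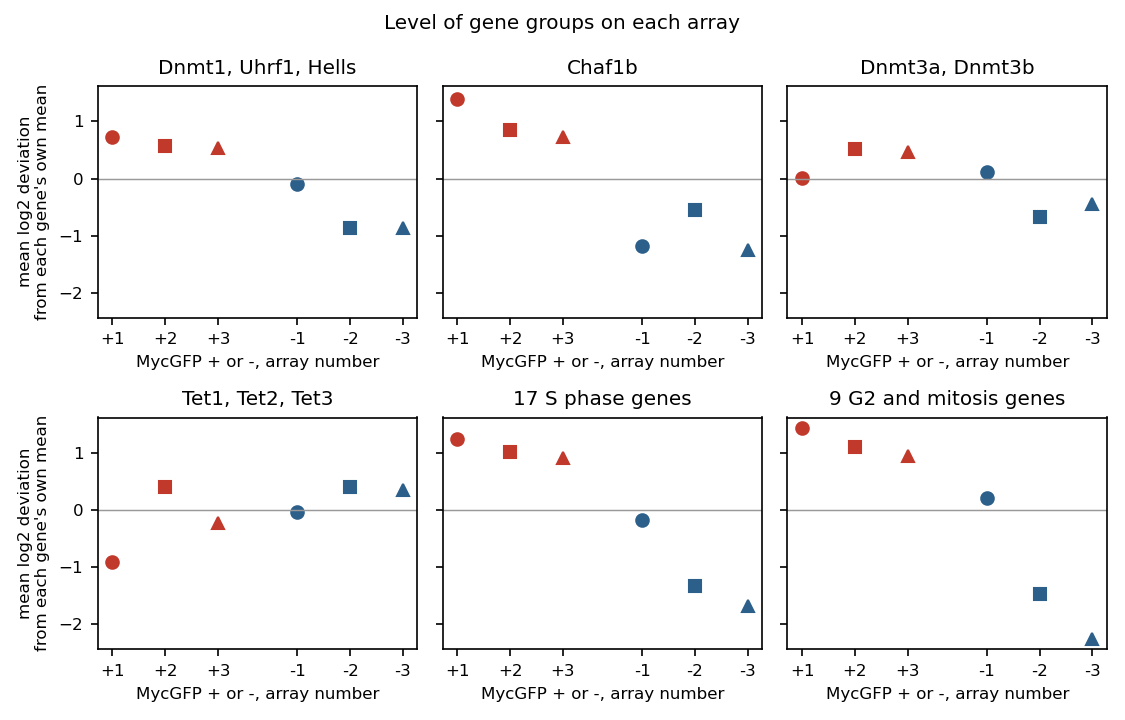
Mean log2 deviation from each gene's own mean (y axis) of 6 gene groups on each array, with MycGFP positive arrays +1 to +3 in red and MycGFP negative arrays -1 to -3 in blue. The maintenance genes stand highest among negative arrays on array 1, at -0.10, as do the S phase genes, at -0.17. The mean of the TET genes is lowest on positive array 1, at -0.90, although Tet3 alone is not.

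Promoters of these genes were searched because the maintenance genes had all positive arrays above all negative ones. RefSeq promoter windows of GRCm38.p6, the 250 bases before each annotated start, exist for all 10 genes, in 15 windows. The letters TTTCCCGC, TTTCGCGC, TTTGCCGC and TTTGGCGC, forms of the site of E2F factors, were searched on both strands. They were found in 3 of the 10 genes, and these were Hells, Uhrf1 and Dnmt1. Of all 27025 genes with a window, 2.16% held one, and these genes were not matched to the 10 for base content. By window they were found in 3 of the 15, against 1.86% of all windows, and not in every window of Dnmt1 or Uhrf1. Dnmt3b and Chaf1b, which also had all positive arrays above all negative ones, held no E2F letters. The E-box CACGTG, which MYC with MAX can bind and which shares no whole match with these letters, was found in a window of 2 genes, Dnmt3a and Chaf1a, and in 6.86% of all genes. The stretches around the 3 E2F matches are given to compare them, with the match in capitals. The Dnmt1 stretch reads the match as the reverse complement of TTTCGCGC.
Hells, chr19:38930917-38930946, + strand: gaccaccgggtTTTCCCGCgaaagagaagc
Uhrf1, chr17:56304117-56304146, + strand: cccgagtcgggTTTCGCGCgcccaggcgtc
Dnmt1, chr9:20952824-20952853, - strand: ggtttccgcgcGCGCGAAAaagccggggtc

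The whole windows of the 2 genes that rose show 1 with a match and 1 without. In that of Hells the E2F letters, in capitals, begin 62 bases before the start. That of Chaf1b holds neither the E2F letters nor the E-box. A match is a description of letters and was not tested as a binding site.
Hells, chr19:38930740-38930989, + strand: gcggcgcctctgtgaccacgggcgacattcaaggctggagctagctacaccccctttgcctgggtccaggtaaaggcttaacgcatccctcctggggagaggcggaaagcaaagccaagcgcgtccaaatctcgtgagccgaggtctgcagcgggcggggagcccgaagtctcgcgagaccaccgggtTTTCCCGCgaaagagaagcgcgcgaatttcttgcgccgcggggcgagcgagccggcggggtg
Chaf1b, chr16:93883651-93883900, + strand: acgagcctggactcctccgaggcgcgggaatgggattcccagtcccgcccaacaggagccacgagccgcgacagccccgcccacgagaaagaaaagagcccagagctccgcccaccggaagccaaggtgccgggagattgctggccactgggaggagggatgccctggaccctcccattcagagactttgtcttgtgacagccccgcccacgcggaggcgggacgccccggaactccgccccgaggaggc

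Of the genes for de novo methylation, Dnmt3b and Dnmt3a differed in pattern. Dnmt3b had 605, 630 and 811 on positive arrays 1 to 3, against 362, 149 and 257 on negative arrays 1 to 3. The groups did not overlap, and the means were 682 ± 112 in positive and 256 ± 107 in negative cells (SD, n = 3 each). The log2 difference was 1.49 ± 0.34 (SE), with a 95% interval of 0.67 to 2.32, and it did not pass (limma, adjusted p = 0.0582). The other Dnmt3b probe set, 1418351_a_at, was below the array median on all 6 arrays, and differed by 0.90 on the log2 scale (limma, adjusted p over all probe sets 0.327). Dnmt3b passed without negative array 1 (limma, adjusted p = 0.0345), as the mean of both probe sets (0.0179), among genes above the median gene alone (0.0392) and with array weights (0.0372). The mean of both includes the dim 1418351_a_at. Under every other setting Dnmt3b did not pass, as with the number as a block (limma, adjusted p = 0.0585) or centring on array medians (0.0758).

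Dnmt3a had intensities of 2682, 5211 and 3768 on positive arrays 1 to 3, against 5169, 4156 and 3290 on negative arrays 1 to 3. The positive range enclosed the negative one. The log2 difference was -0.14 ± 0.29 (SE), with a 95% interval of -0.85 to 0.57 (limma, adjusted p = 0.847), so neither a fall nor a rise within that interval can be told from none. Its sign turned without positive array 1 (0.10) or negative array 1 (0.02). The other 4 probe sets of Dnmt3a gave log2 differences of -0.39, -0.52, -0.17 and -0.40, all with overlapping groups. Within array numbers 1 to 3, however, 3 of them were lower in positive cells each time. The log2 differences were -0.44, -0.23 and -0.50 on 1423063_at, -0.49, -0.59 and -0.49 on 1423065_at, and -0.48, -0.04 and -0.68 on 1460324_at. They were of mixed sign on the brightest probe set, 1423064_at (-0.95, 0.33 and 0.20), and on 1423066_at (0.19, -1.29 and 0.59). A fit with the number as a block was run on 1423064_at alone of the 5, as the probe set used for the gene, and it did not pass (limma, adjusted p = 0.839). Whether the difference of Dnmt3b was larger than that of Dnmt3a was not tested.

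The TET genes were measured on 7 probe sets, and none passed. Tet1 had 320, 1672 and 1329 on positive arrays 1 to 3, against 677, 1249 and 1186 on negative arrays 1 to 3. Arrays numbered 1 were the lowest in both groups, and the other 2 positive arrays lay above every negative one. The log2 difference of Tet1 was -0.17 with a 95% interval of -1.75 to 1.42 (limma, adjusted p = 0.930). Its sign turned without positive array 1, at 0.57 (limma, adjusted p = 0.429), and with array weights, at 0.19 (0.898). With the number as a block the SE was 0.34, and Tet1 did not pass (limma, adjusted p = 0.831). The other 3 Tet1 probe sets gave -0.87, -0.59 and -0.49, and their groups overlapped.

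Tet2 had 152, 478 and 239 on positive arrays 1 to 3, against 410, 528 and 523 on negative arrays 1 to 3. Positive array 2 lay inside the negative range and the other positive arrays below it. The log2 difference was -0.90 ± 0.41 (SE), with a 95% interval of -1.91 to 0.10 (limma, adjusted p = 0.274). On the other probe set, 1438781_at, the values were 18.6, 46.6 and 39.7 in positive cells, against 53.4, 99.1 and 98.6 in negative cells. There the groups did not overlap, and differed by -1.31 on the log2 scale (limma, adjusted p over all probe sets 0.132), and positive array 1 was below the array median. Within each array number both probe sets were lower in positive cells, with differences of -1.43, -0.14 and -1.13 on 1455300_at and of -1.53, -1.09 and -1.31 on 1438781_at (log2, numbers 1 to 3). Without positive array 1 the Tet2 difference was -0.52, and without positive array 2 it was -1.34 (limma, adjusted p = 0.497 and 0.0985). With the number as a block the SE on 1455300_at was 0.29, and Tet2 did not pass (limma, adjusted p = 0.150).

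Tet3, with 1 probe set, had 174, 161 and 111 on positive arrays 1 to 3, against 187, 191 and 186 on negative arrays 1 to 3. The negative arrays were nearly alike and all positive arrays lay below them. The log2 difference was -0.37 ± 0.20 (SE), with a 95% interval of -0.85 to 0.11 (limma, adjusted p = 0.353). Without positive array 3 it was -0.17 (adjusted p = 0.628).

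Read by probe set, all 12 of Dnmt1, Uhrf1, Hells, Dnmt3b and Chaf1b had log2 differences above 0, and all 12 of Dnmt3a, Tet1, Tet2 and Tet3 had differences below 0. The genes were grouped here by the sign of their own difference. For the probe set used for each gene the split was therefore fixed in advance. Probe sets of 1 gene share their RNA, so the other probe sets are not independent of it. Of the 24 probe sets, 4 passed higher and none lower, against 4.01% and 2.80% of all probe sets. Positive array 1 was the lowest positive array on all 11 probe sets of Dnmt3a, Tet1 and Tet2. On the probe set of Tet3 it was instead the highest, at 174 against 161 and 111, so the pattern did not cover all genes below 0. Positive array 1 had the highest level of S phase and of mitosis genes among the 6, at 1.25 and 1.44. The part of this in the values was not tested.

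**Figure D3:**
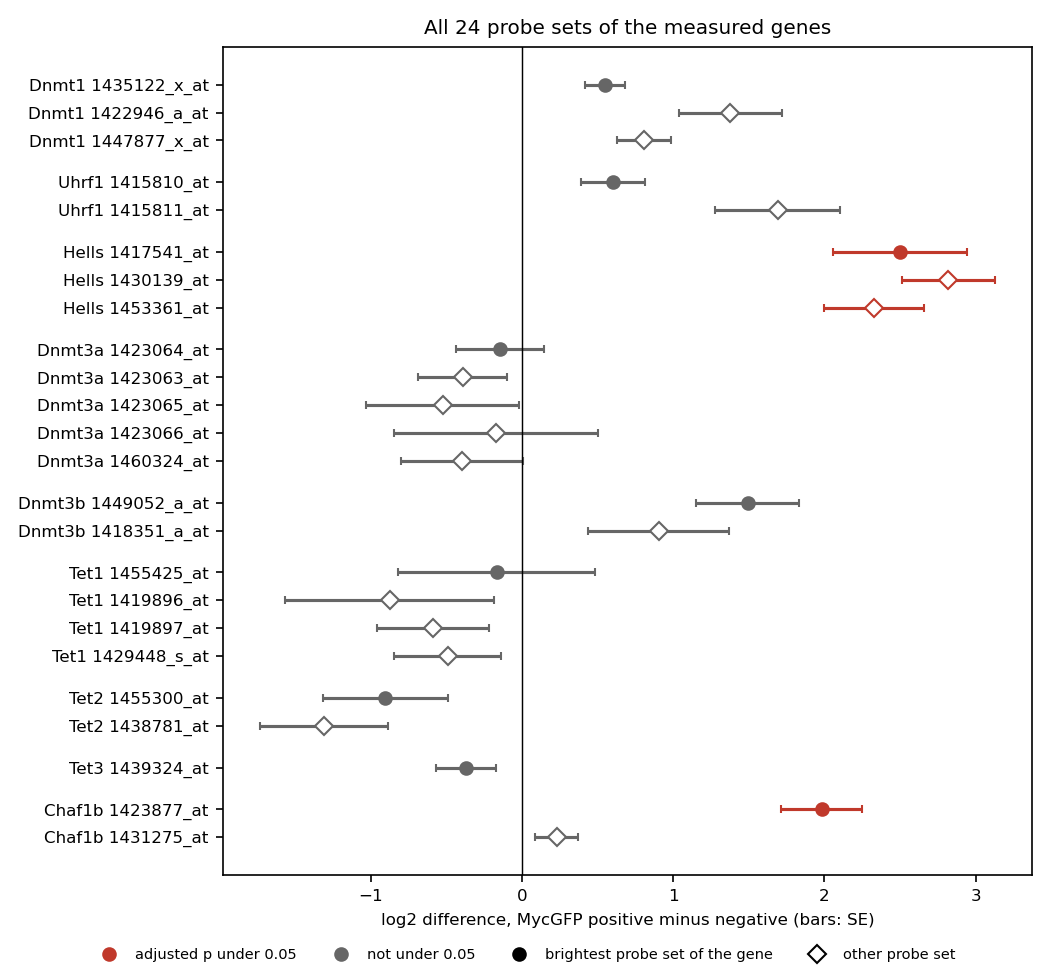
Log2 difference, MycGFP positive minus negative (x axis), with limma's SE as bars, for the 24 probe sets of the 9 measured genes (rows). Filled circles are the probe set with the highest mean of each gene and open diamonds the others; red marks the 4 that passed over all probe sets, 3 of Hells and 1 of Chaf1b, and the probe sets of Dnmt3a and the TET genes all lie below 0.

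Chaf1b, the p60 subunit of CAF-1, had 644, 444 and 408 on positive arrays 1 to 3, against 109, 169 and 103 on negative arrays 1 to 3. The lowest positive value was well above the highest negative one. The means were 499 ± 127 in positive and 127 ± 36.4 in negative cells (SD, n = 3 each). On log2 values the groups differed by 1.98 ± 0.27 (SE, limma, adjusted p = 0.0188). Within array numbers 1, 2 and 3 the log2 difference was 2.56, 1.40 and 1.99. Unlike the maintenance genes, Chaf1b was highest among negative cells on array 2. The call was lost without positive array 1, 2 or 3 (limma, adjusted p = 0.0583, 0.0736 and 0.0606), at log2 differences of 1.78, 2.05 and 2.11. Without positive array 2 no gene at all was called. The other Chaf1b probe set, 1431275_at, lay below the array median on all 6 arrays, at 11.2 to 13.7 in positive and 9.70 to 11.7 in negative cells, so it gave no usable level. The mean of both probe sets passed, at 1.11 (limma, adjusted p = 0.0139), but with no usable level on 1431275_at it adds no second measurement. Rbbp4, whose product is the small CAF-1 subunit, was named after its values were seen. On a probe set ending in x, it had 15380, 15435 and 14500 in positive cells, against 14753, 14654 and 12145 in negative cells, a log2 difference of 0.13 that did not pass (limma, adjusted p = 0.661).

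Of 19 other measured histone chaperone genes and their partners, 5 rose and none fell, where 4.62% of all genes were called higher and 1.51% lower, and the median log2 difference was 0.29. Hat1, which acetylates new histone H4, rose 2.83-fold (limma, adjusted p = 0.0223), to 2280 ± 192 in positive cells, against 824 ± 225 in negative cells. Pcna, the sliding clamp that CAF-1 binds, rose 2.46-fold (adjusted p = 0.0427), with 8336 ± 535 in positive and 3522 ± 1216 in negative cells. Tonsl, which reads new histones at forks, rose 3.04-fold (adjusted p = 0.0441). It was dim in negative cells, at 44.2, 57.2 and 31.6 on arrays 1 to 3, where the array medians were 31.7, 32.7 and 32.3. Nasp, an H3 and H4 chaperone, rose 3.42-fold (adjusted p = 0.0283) on a probe set whose name ends in s, which can hybridise to related transcripts, and with those probe sets left out Nasp differed by -0.0048 (log2, adjusted p = 0.999). Asf1b, which hands H3 and H4 to CAF-1, made the fifth, at 5.04-fold (adjusted p = 0.0471), and it was picked for naming with its values known. None of these 5 passed without positive array 1, 2 or 3 or negative array 2, at adjusted p of 0.0728 to 0.137 (limma). Pcna, Tonsl and Asf1b also did not pass without negative array 3 (0.0633, 0.0849 and 0.0979), nor Tonsl without negative array 1 (0.0852). Centring each array on its median ended the calls of Pcna, Tonsl and Asf1b as well (0.0607, 0.0637 and 0.0607). So did log2(intensity + 16), at adjusted p of 0.0526, 0.0606 and 0.0669 (limma).

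Of 10 partners of the methylation machinery, 2 rose and none fell (4.62% and 1.51% of all genes), at a median log2 difference of 0.33. Lig1, the replicative DNA ligase gene, whose product recruits UHRF1 when methylated, had 1785, 1896 and 1775 on positive arrays 1 to 3, against 630, 331 and 172 on negative arrays 1 to 3. It rose 5.52-fold (limma, adjusted p = 0.0350). Cdca7, which binds HELLS, had 1933, 2039 and 1565 on positive arrays, against 558, 978 and 550 on negative arrays, and rose 2.74-fold (adjusted p = 0.0345). The mean of all Cdca7 probe sets did not pass (log2 difference 0.43, adjusted p = 0.767), and centring left it just outside (0.0508). Neither passed without positive array 1, 2 or 3 (limma, adjusted p = 0.0871 to 0.122). Lig1 did not pass without negative array 2 (0.106), nor Cdca7 without negative array 1 or 3 (0.0718 and 0.0742).

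Of 4 genes for the supply of S-adenosylmethionine, the methyl donor, 2 rose and none fell (4.62% and 1.51% of all genes), at a median log2 difference of 0.92. Ahcy, whose product clears the S-adenosylhomocysteine left by methyltransferases, had 7672, 5644 and 6245 on positive arrays, against 2861, 2040 and 1968 on negative arrays. It rose 2.87-fold (limma, adjusted p = 0.0189). Mtr, the methionine synthase gene, rose 2.12-fold (adjusted p = 0.0243), with 211 ± 31.4 in positive and 99.4 ± 11.6 in negative cells (SD, n = 3 each). Both calls were lost without positive array 1, 2 or 3 or negative array 2, at adjusted p of 0.0620 to 0.0813 (limma), and that of Mtr with a trended and robust variance (0.0503).

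None of 7 measured methyl-CpG readers and none of 11 genes for demethylation and TET partners passed in either direction, at median log2 differences of 0.03 and -0.24. At an unadjusted p under 0.05, where 14.7% of all genes were higher and 7.35% lower, 1 reader and 1 gene for demethylation were lower. The reader with the largest difference was Zbtb4, a repressor that binds methylated CpG, with 87.7, 115 and 222 in positive cells, against 193, 892 and 486 in negative cells, a log2 difference of -1.74 (limma, adjusted p = 0.167). The mean of all Zbtb4 probe sets passed as lower, at -1.39 (limma, adjusted p = 0.0163). In the other list it was Gadd45a, a stress gene linked to demethylation, with 325, 314 and 288 in positive cells, against 1077, 1542 and 444 in negative cells, a log2 difference of -1.55 (limma, adjusted p = 0.103). Without negative array 3 Gadd45a passed as lower, at -2.06 (limma, adjusted p = 0.0222). Its positive arrays were close together and all lay below the negative ones.

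**Figure D4:**
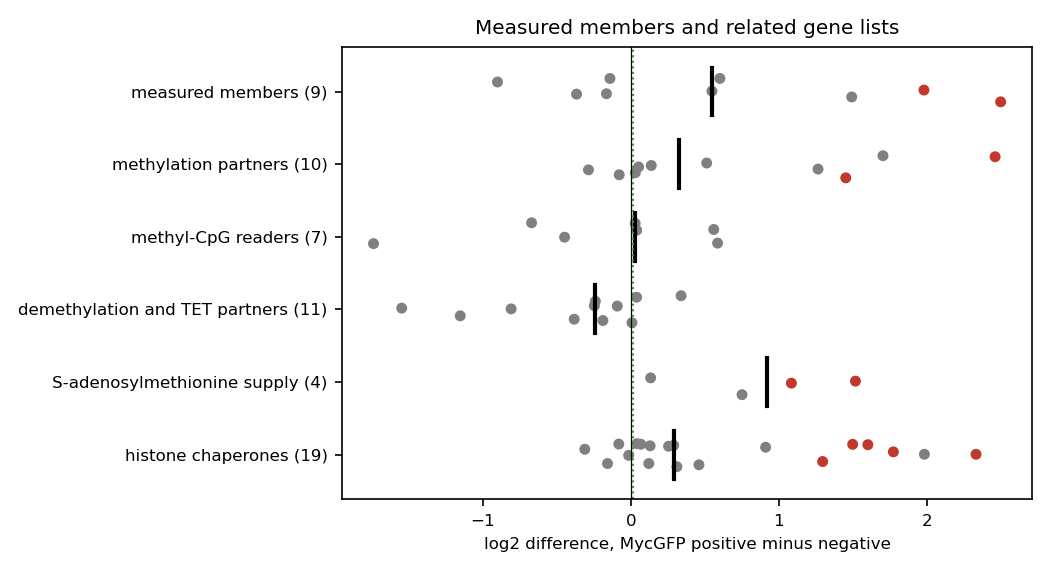
Log2 difference, MycGFP positive minus negative (x axis), of each measured gene in 6 lists (rows, with the number of genes). Points are genes, spread vertically at random, red where limma's adjusted p was under 0.05; black bars are the medians, from -0.24 for demethylation and TET partners to 0.92 for S-adenosylmethionine supply, and the dotted line is the median of all genes, 0.01.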

How the data were processed

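The authors deposited 1 intensity per probe set and array. Per the submitters' processing notes it was made with RMA, of unstated version. Per the labels' protocols, 5 ng of total RNA went into Ovation amplification and biotin labelling, a step that can favour 3' ends and add noise to dim genes. The values are linear: all were above 0, with maxima of 18767 to 19948 without control probe sets. Log2 was taken first. RMA brings arrays towards a common distribution, which hides differences in total RNA per cell. No detection calls were used.

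Of 45101 probe sets, 64 controls were left out. The platform annotation gave 34945 of the others 1 symbol, 932 several and 9160 none, and 34741 matched the RefSeq table of GRCm38.p6 by Entrez identifier. Each gene was represented by its probe set with the highest mean. Limma 3.58.1 in R 4.3.3 (lmFit, eBayes, two-sided, Benjamini-Hochberg) was run on 18193 genes, with 4 residual and 2.17 prior degrees of freedom, and again on 45037 probe sets. Adjusted p-values are over all genes unless said to be over all probe sets. The fit was also run on simulated data with independent noise for each gene and array. Those data held no pairing and no array effect shared between genes, so they do not test how the fit handles either. Folds are ratios of geometric means. The number of arrays limits the precision.

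The genes and lists were chosen with earlier results of these data known, so no list was tested. All members were named. Of each related list up to 4 called genes with the smallest adjusted p, or the gene with the largest difference where none was called, were named. Both groups are numbered 1 to 3. With group means removed, positive and negative arrays sharing a number had r = 0.38, 0.21 and 0.39 across genes, so the numbers were taken to pair the arrays, although no label says that a number marks 1 leukaemia. The main fit did not use this pairing, and all values are from it unless the block is named. Beyond the 3 leukaemias of the design nothing says that a group's arrays came from separate mice, so p-values measure the spread between these arrays. The alternatives were the number as a block, each array left out, the mean of a gene's probe sets, centring on array medians, genes above the median gene only, log2(intensity + 16), no probe sets ending in x or s, a trended and robust variance, and array weights.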

Additional observations from a re-analysis of the deposited data

How the results depend on the processing

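With the replicate block, Hells and Chaf1b passed (limma, adjusted p = 0.0295 and 0.0311) and no other member did, and no call changed among the members, Asf1b and the list genes named by rule. Other named genes were not looked up under the block. The block called 1047 genes higher and 354 lower, with 3 methylation partners higher in place of 2. Leaving out 1 array moved the log2 difference of Hells between 2.15 and 3.01, Chaf1b 1.78 and 2.21, Dnmt1 0.47 and 0.60, Uhrf1 0.45 and 0.81, Dnmt3b 1.15 and 1.79, Dnmt3a -0.38 and 0.10, Tet1 -0.62 and 0.57, Tet2 -1.34 and -0.52, and Tet3 -0.50 and -0.17. Dnmt3a turned to 0.10 and 0.02 without positive or negative array 1, and Tet1 to 0.57 without positive array 1 and 0.19 with array weights. Members called higher ranged from 0 to 4 without 1 array, and were 4 with the mean of all probe sets. All genes called ranged from 0 to 862 higher and 0 to 238 lower without 1 array. Without positive array 2 limma called none (at an unadjusted p under 0.05, 2209 were higher and 976 lower) and so ended every call of a gene given here. Centring on array medians gave 502 higher and 381 lower genes, 56.9% higher in place of 75.3%, and moved the median of all genes from 0.01 to -0.14. Dnmt1 passed as the mean of its probe sets (log2 difference 0.91), with log2(intensity + 16) (0.55) and with a trended and robust variance (0.55). Dnmt3b passed as the mean (1.20), among genes above the median gene (1.49), with array weights (1.61) and without negative array 1 (1.79). Neither Dnmt1 nor Dnmt3b passed under any other setting, and Uhrf1 passed only without negative array 1. Without 1 array, the calls higher were 0 to 2 for methylation partners and for S-adenosylmethionine supply and 0 to 5 for histone chaperones, and the calls lower 0 to 1 for demethylation genes. Methylation partners had 1 call with the mean of probe sets or with centring, methyl-CpG readers 1 lower with the mean, S-adenosylmethionine supply 1 with a trended and robust variance, and histone chaperones 2 with centring or log2(intensity + 16). Histone chaperones had 7 in place of 5 with the block, array weights, a trended and robust variance, or only genes above the median gene. The cause of these changes was not tested.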

Other observations

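Negative array 1 lay above every positive array for a few replication and histone chaperone genes, which were chosen after their values were seen. Of 17 S phase genes, 14 had all positive arrays above all negative ones, as had 10 of 19 histone chaperone genes. Mcm2, a helicase gene, had 1789, 1942 and 1935 on positive arrays 1 to 3, against 2806, 560 and 516 on negative arrays 1 to 3. Rrm2, a ribonucleotide reductase gene, had 7703, 7631 and 7389 in positive cells, against 8715, 5221 and 4085 in negative cells. Mcm2 was read on a probe set ending in s and Rrm2 on one ending in x, which can hybridise to other transcripts. Asf1a, the paralogue of Asf1b, had 2907, 2457 and 2387 in positive cells, against 4245, 1453 and 1447 in negative cells. On the same array Hells, at 634, and Chaf1b, at 109, lay below every positive array.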
